A study of Homo sapiens with 8 samples.

Results

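The exons described here were used about as often as they were skipped in 2 untreated human breast cell lines, MCF10A and HMLE TWIST. Members were chosen by their control levels. A member is a skipped-exon event, that is, a middle exon with its upstream and downstream neighbours, whose inclusion level lay from 0.3 to 0.7 in each of the 4 control libraries. The inclusion level is the share that keep the middle exon among transcripts with either form of the event. It was computed from the reads that cross the junctions of the event and corrected for the effective length of each form. Events also needed at least 50 junction reads in each control library. Of 56675 events that the tables of both lines held at the same coordinates, 42103 had that depth and 511 were members. They covered 495 exons of 436 genes, and 65 genes held more than 1 member, so members of a gene can share junction reads.

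MCF10A is a non-tumorigenic breast epithelial line. HMLE TWIST cells are immortalised breast epithelial cells with a retrovirally integrated (pBabe) TWIST gene, a transcription factor of the epithelial-mesenchymal transition. Each line was grown for 24 hours with the solvent DMSO (control) or with 10 µM emetine, and each of the 4 groups had 2 libraries of polyadenylated RNA. No TWIST-free HMLE line was analysed here, so the transgene and the cell line cannot be told apart. Nothing in the labels says that the replicates came from separate cultures, so p-values measure the spread between these libraries, which may be technical.

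Most exons are kept in nearly every transcript or, as cryptic exons, in very few. An exon near the middle of the scale gives 2 abundant mRNAs from a gene, and its use can move in either direction. Use is set by the strength of the splice sites, by regulators such as SR proteins and heterogeneous nuclear ribonucleoproteins that bind the exon or its flanks, and by intron length and transcription. Emetine is a plant alkaloid that blocks the ribosome during elongation, and the series concerns compounds that alter splicing through RNA G-quadruplexes, structures built from runs of guanine. Some transcript forms carry an early stop codon and are removed by nonsense-mediated decay, which depends on translation.

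The members could move both ways, and their sequences show how small the switched unit can be. The shortest coding members are shown because most of those that changed fell under emetine, and AXL, DNAJC19 and NCOR1 because they did not pass the test. Capitals mark runs of at least 3 guanines, and every exon is read 5′ to 3′ on the transcribed strand from GENCODE 29 transcripts (GRCh38).
MLLT4, 21 bases: gaagtagaccaggttgaccag
SENP6, 21 bases: cagtctggaccgaaaagaaag
PHACTR4, 24 bases: acttctccagagaaccttggaaca
NAV1, 24 bases: gctgaggagaggatgcaatctgag
INCENP, 12 bases: tgcagcttcgtc
RAPGEF2, 24 bases: gaagaagaaatggcggagtttGGG
DIAPH2, 21 bases: atagttggaagtaaagttacg
AXL, 27 bases: ggcaagcacagccagtccaccagctgg
DNAJC19, 25 bases: gccttcagtggtggctattatagag
NCOR1, 27 bases: tggagtacctgcaaggcgcatgatgaa
Only RAPGEF2 among these 10 held a G run. Longer coding exons are shown for a shared rise (LSM14B), shared falls (RIF1 and MAP4K3) and called differences between the lines (MRPL33 and CAPRIN2).
LSM14B, 117 bases: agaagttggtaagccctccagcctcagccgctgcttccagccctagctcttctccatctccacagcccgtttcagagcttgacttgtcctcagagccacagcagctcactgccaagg
RIF1, 78 bases: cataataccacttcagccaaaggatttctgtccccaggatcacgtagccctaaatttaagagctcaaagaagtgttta
MAP4K3, 63 bases: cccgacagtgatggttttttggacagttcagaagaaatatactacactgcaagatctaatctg
MRPL33, 107 bases: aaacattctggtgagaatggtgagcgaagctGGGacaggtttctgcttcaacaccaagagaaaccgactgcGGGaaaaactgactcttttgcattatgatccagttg
CAPRIN2, 83 bases: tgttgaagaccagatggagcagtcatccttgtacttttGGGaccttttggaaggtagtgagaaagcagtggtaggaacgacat
The exons of LSM14B, RIF1 and MAP4K3 held no G run, that of MRPL33 held 2 and that of CAPRIN2 1. The DLG4 exon, a shared fall, and the MKNK1 exon, a shared rise, each held 1, and the SUGT1 exon, among the least changed, held 2.

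Junction reads summed over the members ran from 248973 to 353187 per library, with a read counted in each event it supports. The median member had 144 reads in its shallowest library, and 14 members had under the 20 reads that the test asked for in some library. The median spread between replicates was an SD of 0.0286 in the MCF10A controls and 0.0318 in those of HMLE TWIST. Of 14 epithelial marker genes, 11 had an event in MCF10A and 7 in HMLE TWIST, with summed junction reads of 372238 to 380699 in the MCF10A controls and 649 to 677 in those of HMLE TWIST. The best covered event of CDH1, which encodes E-cadherin, averaged 1462 reads in the former and 1.0 in the latter, and KRT5 and KRT14 had none in HMLE TWIST. Of 12 mesenchymal marker genes, 6 had an event in MCF10A and 11 in HMLE TWIST, with 27648 to 30950 and 4509028 to 4598270 summed reads in the controls. These sums differed under emetine, at 299259 to 300307 epithelial and 7199 to 7805 mesenchymal reads in MCF10A and 699 to 714 and 2629037 to 2941310 in HMLE TWIST, and the part of this in the emetine changes was not tested. Junction reads are no expression level, but by them the epithelial label of HMLE TWIST lacks these defining markers.

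Under emetine more members rose than fell in both lines. In MCF10A 227 of the 502 members tested changed, 154 to higher and 73 to lower inclusion. The percentage called over all events tested in that line was 13.1, with 7.96 higher and 5.14 lower. In HMLE TWIST 234 of 506 changed, 140 higher and 94 lower, against a percentage called of 14.3 over all events tested, 6.27 higher and 8.01 lower. A member was called where a quasi-binomial model of its inclusion and skipping reads gave an adjusted p under 0.05 over all events of the fit and the level changed by at least 0.1. Rises made up 67.8% of the called members in MCF10A and 59.8% in HMLE TWIST, beside 60.8% and 43.9% of all called events. The level is a ratio, so more of the included form and less of the skipped form, like a change in some of the cells and a change in all of them, cannot be told apart.

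The sizes were alike in both directions. Called rises had a median of 0.21 in MCF10A and 0.22 in HMLE TWIST, and called falls a median of -0.219 and -0.227. In MCF10A 26 called members rose and 15 fell by at least 0.3, and in HMLE TWIST 33 rose and 24 fell by that much. The median absolute change of all members was 0.115 in MCF10A and 0.122 in HMLE TWIST, beside 0.0239 and 0.0256 over all events tested. On the scale of log2 odds the order turned, with a median absolute change of 0.71 and 0.77 for members beside 1.28 and 1.43 over all events. A given shift in odds moves a level most near the middle of the scale, and the part of this in the share of called members was not tested.

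Called events that started on 1 side of the window mostly moved towards it, but a call needs a change of at least 0.1. An event near an end of the scale has little room for such a change away from the window. This direction was therefore partly fixed by the starting level. Of the 5687 events below the window in all 4 controls, 4805 were tested in MCF10A and 4634 in HMLE TWIST. In MCF10A 799 of these rose and 21 fell (17.1% of those tested), and in HMLE TWIST 548 rose and 57 fell (13.1%). Of the 34710 above the window, 13081 and 16614 were tested. In MCF10A 123 rose and 769 fell (6.82% of those tested), and in HMLE TWIST 232 rose and 1480 fell (10.3%). The 1195 events with controls neither all inside nor all on 1 side of the window moved both ways, as the members did. In MCF10A 309 of them rose and 146 fell (39.95% of those tested, beside 45.2% of members), and in HMLE TWIST 377 rose and 221 fell (50.6%, beside 46.2%). Within the window, calls in both directions were present at every starting level. Members with a control mean of 0.3 to 0.4 had 31 rises and 8 falls in MCF10A and 36 and 17 in HMLE TWIST. Members at 0.6 to 0.7 had 39 rises and 20 falls in MCF10A and 19 and 21 in HMLE TWIST. The median emetine level of called rises was 0.737 in MCF10A and 0.722 in HMLE TWIST, and that of called falls was 0.287 and 0.27.

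Levels under emetine lay on both sides of the window as well as in it. The control libraries were held inside by the choice of members, so libraries it did not use would pass the bounds to some extent without any change, and that extent was not measured. In MCF10A 290 members kept both emetine libraries inside the window, 98 had both above it and 45 both below. In HMLE TWIST the counts were 310, 80 and 52. All 4 emetine libraries stayed inside the window for 225 members, 44% of the 511, while 49 members had all 4 above and 27 all 4 below. No member had MCF10A on one side of the window and HMLE TWIST on the other. The median level was 0.522 in control and 0.579 in emetine-treated MCF10A cells, and 0.499 and 0.533 in HMLE TWIST cells.

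**Figure D1:**
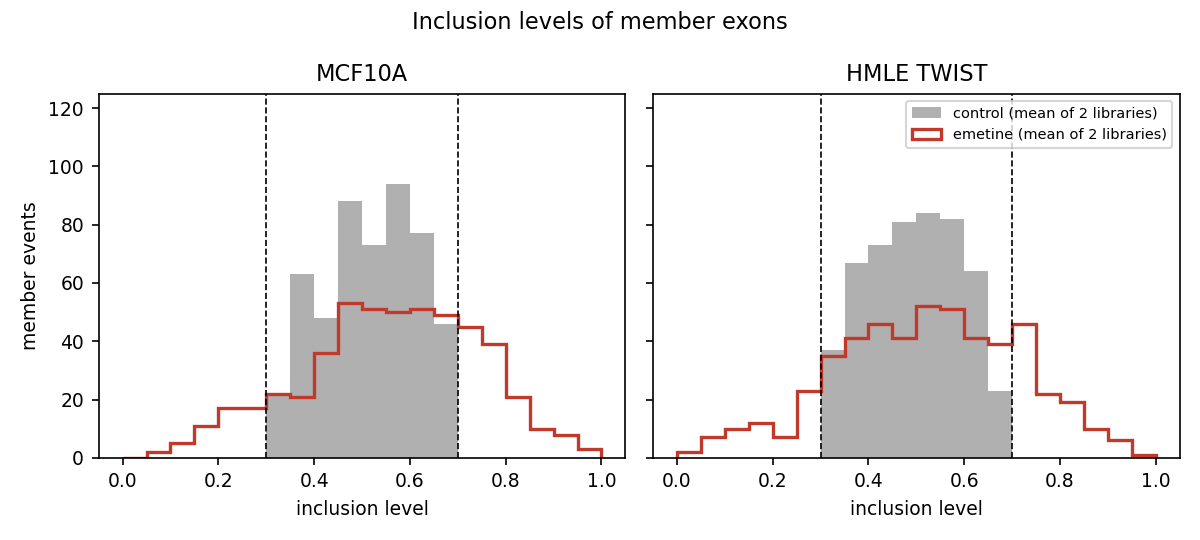
Histograms of the inclusion level of the 511 members in each line, with the mean of the 2 control libraries filled in grey and the mean of the 2 emetine libraries as a red line. Dashed lines mark the window of 0.3 to 0.7 that chose the members by their control libraries, and the emetine values reach past it on both sides.

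Direction was mostly shared by the lines. Of the members called in both lines, 142 moved the same way and 3 did not. Of the 142, 93 were higher and 49 lower in both, which is 18.7% and 9.86% of the 497 members tested in both lines. The percentage called in both lines in the same direction over all 19025 events tested in both was 8.73, with 4.64 both higher and 4.08 both lower. The sign of the change was the same in 390 of 511 members (76.3%), close to the 77.1% of all events tested in both. Plotted against each other, the MCF10A and HMLE TWIST changes gave a correlation of 0.663 (Pearson) and 0.661 (Spearman) over 511 members, and 0.651 and 0.643 over 1 member per gene in 436 genes. Over all events tested in both lines the values were 0.707 and 0.676. These are descriptions across events of the same libraries, which are not independent replicates.

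**Figure D2:**
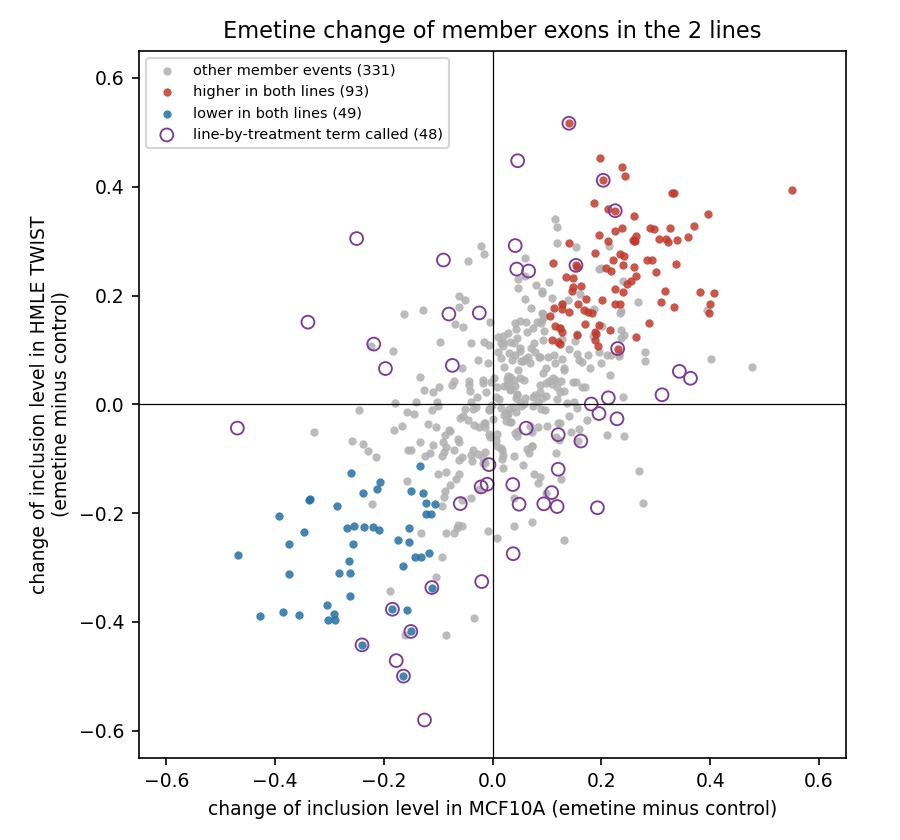
Change of inclusion level (emetine minus control, means of 2 libraries) in MCF10A on the x axis and in HMLE TWIST on the y axis, 1 point per member. Red points (93) rose and blue points (49) fell in both lines, and purple rings mark the 48 members whose line-by-treatment term was called.

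With limma on the log2 odds, a test that estimates the spread of each event more freely, 56 members (10.96%) were called in MCF10A and 77 (15.07%) in HMLE TWIST, where limma's percentage called over all events tested was 7.88 and 9.94. It called 26 members in both lines in the same direction. Control and emetine levels did not overlap for 389 members in MCF10A (76.1%) and for 387 in HMLE TWIST (75.7%), where the percentage over all events tested was 67.4 and 69.9.

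The largest shared rise was in ZC3H11A, a zinc finger protein linked to mRNA export, at a 309-base exon of the 5′ UTR (chr1:203765421-203765729, GRCh37). In MCF10A the 2 controls were at 0.308 and 0.379 and the 2 emetine libraries at 0.908 and 0.882, and in HMLE TWIST it was 0.556 and 0.471, then 0.898 and 0.914. All 4 emetine libraries stood far above all 4 controls. The change was 0.551 in MCF10A (adjusted p = 1.03e-09) and 0.393 in HMLE TWIST (adjusted p = 1.98e-05).

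A 136-base exon of HNRNPA2B1 (chr7:26230613-26230748), annotated in a transcript subject to nonsense-mediated decay, was nearly always included under emetine. This gene encodes a heterogeneous nuclear ribonucleoprotein that itself binds pre-mRNA. MCF10A levels were 0.603 and 0.647 without and 0.957 and 0.947 with emetine, and 0.602 and 0.599, then 0.931 and 0.917, in HMLE TWIST. The lines were almost superposed, with changes of 0.327 (adjusted p = 2.52e-10) and 0.324 (adjusted p = 6.47e-10). CCDC92, a coiled-coil protein gene with a 93-base exon (chr12:124428819-124428911), went from 0.688 and 0.645 to 1.0 in both MCF10A emetine libraries. In HMLE TWIST it went from 0.605 and 0.544 to 0.947 and 0.978. No skipping read was counted among 127 and 214 reads of the MCF10A emetine libraries. That allows skipping in up to 2.36% and 1.4% of the reads (counting error only), and in a larger share after length correction.

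LSM14B, which encodes an RNA-binding protein of ribonucleoprotein granules, includes the 117-base coding exon printed above (chr20:60702641-60702757). It rose from 0.347 and 0.306 to 0.688 and 0.705 in MCF10A and from 0.444 and 0.37 to 0.773 and 0.695 in HMLE TWIST. The exon therefore passed from the minor to the major form in both lines. The changes were 0.37 (adjusted p = 2.6e-06) and 0.327 (adjusted p = 1.09e-06). MTMR14, a phosphoinositide phosphatase gene, has a 156-base exon that also makes an annotated decay transcript. Its MCF10A means were 0.546 ± 0.091 in the controls and 0.865 ± 0.017 under emetine (SD, n = 2), and those of HMLE TWIST 0.495 ± 0.054 and 0.799 ± 0.018.

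The other large shared rises were C6orf89, LINC01128 and KRIT1. The 100-base 5′ UTR exon of C6orf89 rose by 0.395 in MCF10A and 0.35 in HMLE TWIST. LINC01128, a long noncoding RNA, rose by 0.331 and 0.389, but its MCF10A call was lost without the first listed emetine library. KRIT1, whose product acts at endothelial cell junctions, rose by 0.36 and 0.307. Its emetine libraries in MCF10A lay apart, at 0.699 and 0.859, its limma adjusted p there was 0.0579, and its HMLE TWIST call was lost without the second listed control library.

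The largest shared fall was in a 21-base microexon of MLLT4 (chr6:168314083-168314103), the gene of afadin, which ties nectins to actin at adherens junctions. MCF10A controls were at 0.588 and 0.623, and emetine libraries at 0.169 and 0.186. In HMLE TWIST it was 0.69 and 0.625, then 0.24 and 0.297. The exon thus passed from the major to the minor form in both lines, by -0.428 (adjusted p = 1.53e-08) and -0.389 (adjusted p = 2.79e-05). SCRIB, a scaffold of apical-basal polarity, lost a 75-base coding exon (chr8:144873836-144873910) to much the same end point in both lines. It went from 0.489 and 0.5 to 0.115 and 0.126 in MCF10A and from 0.403 and 0.467 to 0.117 and 0.127 in HMLE TWIST, with adjusted p of 4.88e-09 and 1.28e-09.

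ATG9A, the transmembrane protein of autophagosome formation, skipped a 62-base 5′ UTR exon (chr2:220093146-220093207) more often. Its MCF10A means were 0.617 ± 0.044 and, under emetine, 0.232 ± 0.024 (SD, n = 2), and the HMLE TWIST means were 0.609 ± 0.038 and 0.227 ± 0.044. RIF1, which acts in replication timing and double-strand break repair, has the 78-base coding exon printed above (chr2:152324988-152325065). Its level went from 0.596 and 0.586 to 0.289 and 0.284 in MCF10A and from 0.612 and 0.668 to 0.248 and 0.292 in HMLE TWIST. Control and emetine libraries of RIF1 were well apart in both lines, with adjusted p of 0.000301 and 0.000103. HMGN1, a nucleosome-binding protein gene, lost a 105-base exon by -0.357 and -0.387.

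The remaining large shared falls were PRR14, MRPL55 and DLG4. PRR14, which tethers heterochromatin to the nuclear lamina, ended at 0.0778 and 0.0498 in MCF10A and at 0.0694 and 0.0992 in HMLE TWIST, from control means of 0.355 and 0.469. The 38-base 5′ UTR exon of MRPL55, a mitochondrial ribosomal protein gene, fell by -0.289 and -0.397. DLG4, the gene of the synaptic scaffold PSD-95, fell by -0.398 in HMLE TWIST (adjusted p = 1.44e-06). Its 2 MCF10A emetine libraries were at 0.154 and 0.405 with as few as 26 reads, the limma adjusted p was 0.129, and that call was lost without the first listed library of either MCF10A group.

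**Figure D3:**
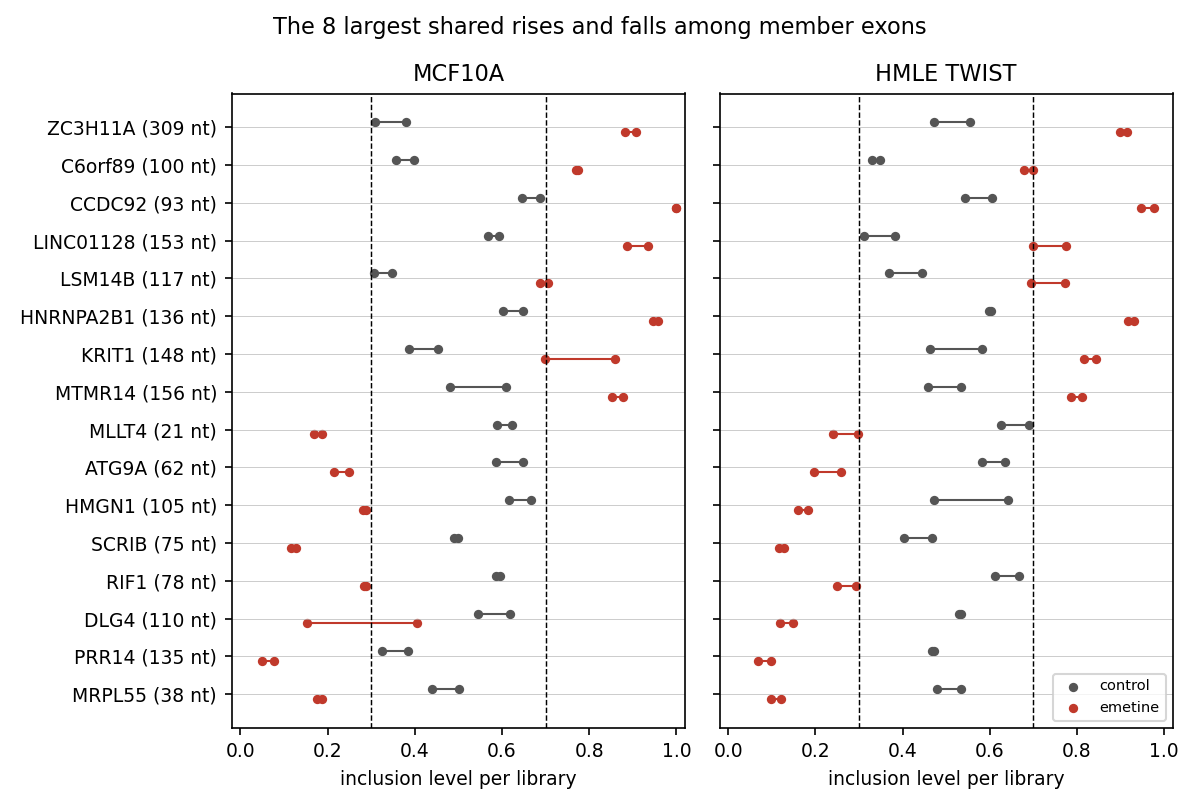
Inclusion level in every library for the 8 members with the largest shared rise (upper rows) and the 8 with the largest shared fall (lower rows), ranked by the smaller of the 2 changes. Grey points are controls and red points emetine libraries, a line joins the 2 libraries of a group, and dashed lines mark the window of 0.3 to 0.7.

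Many members did not pass the test in either line, 195 of 511. Among those with at least 200 reads in all 8 libraries, 4 had the smallest changes. AXL, a receptor tyrosine kinase, had its 27-base exon at 0.491 and 0.436 in untreated MCF10A and at 0.474 and 0.43 with emetine, and at 0.575 and 0.576, then 0.614 and 0.584, in HMLE TWIST. The changes were -0.012 and 0.0234, with adjusted p of 0.802 and 0.114. AKR1A1, an aldo-keto reductase gene covered by at least 1022 reads, moved by 0.0214 and -0.0205. SUGT1, a co-chaperone gene, moved by 0.025 and -0.0161, and FAM120AOS by -0.0291 and 0.013. A p that misses the threshold does not show that these exons kept their level, but each difference was at most 0.0291.

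A different response in the lines was called (line-by-treatment term) for 48 members of 497 tested (9.66%), beside 1.62% of all 19025 events. In 31 of them the change was more negative in HMLE TWIST and in 17 more positive, beside percentages of 1.13 and 0.494 over all events. In 21 of the 48 the changes in the 2 lines had opposite signs, but in only 7 were both changes at least 0.1 in size. limma called none of the 48, with 63 members at an unadjusted p under 0.05 and a smallest adjusted p of 0.112. The count fell to 27 without the second listed MCF10A control, and to 28 and 25 without the first or second HMLE TWIST control. The epithelial and mesenchymal markers differ between the lines as given above, and their part in these differences was not tested.

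BCL9L, a coactivator of beta-catenin, had the largest difference, at a 54-base exon (chr11:118789535-118789588). MCF10A controls were at 0.693 and 0.647 and emetine libraries at 0.458 and 0.382, while in HMLE TWIST it was 0.371 and 0.461, then 0.764 and 0.677. The exon thus fell in one line and rose in the other, and the lines changed places. The difference of the changes was 0.555 (adjusted p = 0.00013, and 0.115 with limma). BCL9L is also 1 of the 3 members called in opposite directions in the 2 lines. The others were MARK2, a microtubule-affinity kinase gene, at 0.121 in MCF10A and -0.119 in HMLE TWIST, and CNEP1R1, at 0.193 and -0.19. MARK2 and CNEP1R1 were picked after their values were seen.

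A 792-base exon of MDC1, a mediator of the DNA damage checkpoint, had MCF10A levels of 0.412 and 0.539, then 0.512 and 0.53. In HMLE TWIST it went from 0.406 and 0.389 to 0.827 and 0.864. Only the HMLE TWIST groups stood apart, and the difference of the changes was 0.402 (adjusted p = 4.9e-05, and 0.146 with limma). ZNF446, a zinc finger gene, showed the reverse at a 65-base 5′ UTR exon, with MCF10A levels of 0.659 and 0.649, then 0.159 and 0.21. Its HMLE TWIST levels were 0.576 and 0.649, then 0.477 and 0.66, which overlap. The difference of 0.426 had an adjusted p of 0.0338, and leaving out any library but the first listed HMLE TWIST emetine library ended that call.

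RAPGEF2, an exchange factor for the GTPase Rap, and CAPRIN2, an RNA-binding protein gene, complete the 5 largest differences. The 24-base RAPGEF2 exon went from 0.687 and 0.489 to 0.35 and 0.147 in MCF10A and from 0.441 and 0.539 to 0.674 and 0.608 in HMLE TWIST, with an adjusted p of 0.0498 for the difference. The CAPRIN2 exon went from 0.335 and 0.41 to 0.154 and 0.341 in MCF10A and from 0.598 and 0.686 to 0.0404 and 0.0835 in HMLE TWIST, with an adjusted p of 0.0289. Both exons rest on thin libraries, with as few as 57 and 28 reads, and each call ended in 5 of the 8 fits that leave out a library.

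**Figure D4:**
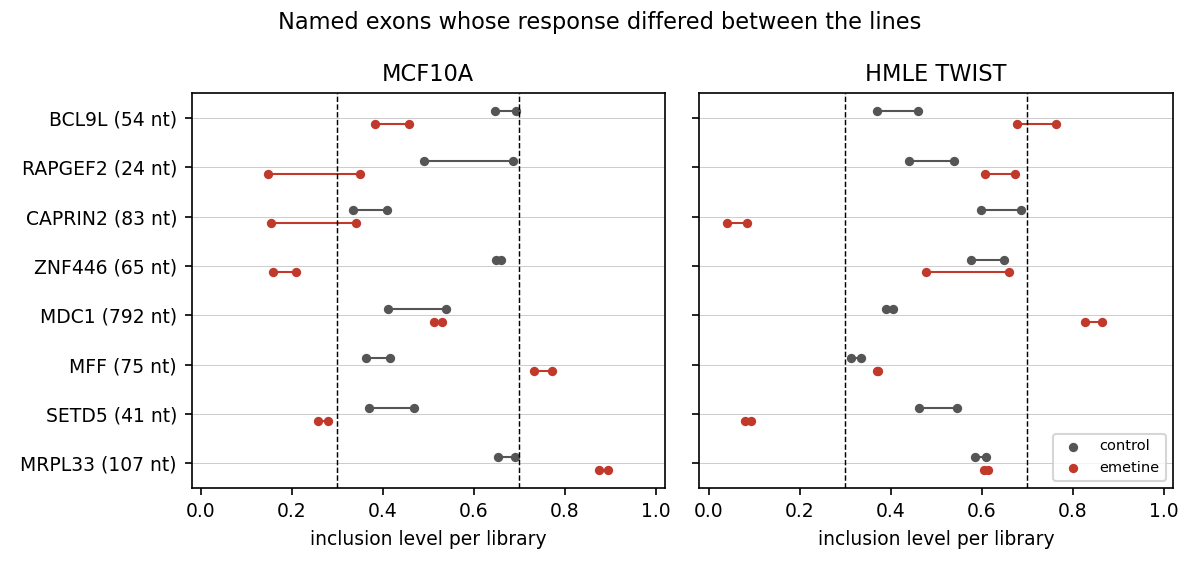
Inclusion level in every library for the 8 named members with a called line-by-treatment term, ordered by the size of the difference of the changes. Grey points are controls and red points emetine libraries, and dashed lines mark the window of 0.3 to 0.7.

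Exon features were not used to choose the members and are given beside those of all tested events, of any starting level. Exon length was a multiple of 3 in 54.4% of members, beside 39.2% of all events tested in MCF10A and 38.1% in HMLE TWIST. Of the 511, 466 could be matched to exons of GENCODE 29. Both forms were annotated as coding for 69.7% of members, against 30.5% and 26.4%, and 21.9% lay in a 5′ UTR, against 8.98% and 7.3%. Rises outnumbered falls whether or not the exon length was a multiple of 3. Of the 278 members whose length is a multiple of 3, 73 rose and 44 fell in MCF10A and 76 rose and 55 fell in HMLE TWIST, and of the other 233, 81 rose and 29 fell, and 64 rose and 39 fell. Over all tested events, 8.1% rose and 4.21% fell in MCF10A and 6.8% and 6.5% in HMLE TWIST for lengths that are a multiple of 3. For other lengths 7.87% rose and 5.73% fell in MCF10A, but in HMLE TWIST 5.94% rose and 8.93% fell.

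Among members between short introns, falls outnumbered rises. Of the 83 with both flanking introns under 1000 bases, 13 rose and 25 fell in MCF10A, and 14 rose and 33 fell in HMLE TWIST, with median changes of -0.0341 and -0.0691. SCRIB, RIF1, DLG4, PRR14 and MRPL55 of the largest shared falls were among them. The same tilt was present over all events tested with such introns, where 4.46% rose and 11.0% fell in MCF10A and 2.95% rose and 15.3% fell in HMLE TWIST. Of the 87 members with both introns of at least 5000 bases, 27 rose and 8 fell in MCF10A and 17 rose and 14 fell in HMLE TWIST. Over all tested events of that class 5.88% rose and 4.59% fell in MCF10A and 5.31% rose and 5.8% fell in HMLE TWIST.

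Among the 12 members of at most 27 bases, the size class called microexons, called falls also outnumbered called rises. Their median change was -0.127 in MCF10A but 0.00107 in HMLE TWIST. In MCF10A 1 rose and 6 fell, and in HMLE TWIST 1 rose and 5 fell, and the 5 that fell in both lines were MLLT4, SENP6, PHACTR4, NAV1 and INCENP. SENP6, a SUMO protease gene, went from 0.646 and 0.674 to 0.16 and 0.224 in MCF10A and from 0.62 and 0.454 to 0.243 and 0.276 in HMLE TWIST. NAV1, of the microtubule-associated navigator family, went from 0.37 and 0.391 to 0.12 and 0.106, and from 0.31 and 0.37 to 0.118 and 0.109. The 12-base exon of INCENP, a subunit of the chromosomal passenger complex, fell by -0.154 and -0.228. DIAPH2, a formin gene, was the microexon that rose, by 0.187 in MCF10A and 0.37 in HMLE TWIST. Over all tested events of that size, 4.29% rose and 15.3% fell in MCF10A and 6.44% rose and 13.9% fell in HMLE TWIST. SENP6, PHACTR4, NAV1 and INCENP were picked after their values were seen.

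Members with an annotated decay form moved in both directions. In 27 members inclusion gives a transcript annotated for decay and skipping a coding one. Of these, 11 rose and 4 fell in MCF10A, while 7 rose and 9 fell in HMLE TWIST. Over all tested events of that class, 21.3% rose and 1.7% fell in MCF10A and 15.8% rose and 2.74% fell in HMLE TWIST. SRSF6, an SR protein gene, rose at its 268-base decay exon (chr20:42087793-42088060) from 0.325 and 0.377 to 0.68 and 0.634 in MCF10A and from 0.316 and 0.439 to 0.704 and 0.657 in HMLE TWIST. TIAL1, which encodes an RNA-binding protein of stress granules, fell at a 376-base exon of the same class by -0.265 and -0.289. In 21 members it is skipping that gives the decay transcript, and 7 rose and 4 fell in MCF10A and 3 rose and 4 fell in HMLE TWIST. Over all tested events of that class 2.29% rose and 14.96% fell in MCF10A and 1.7% rose and 21.8% fell in HMLE TWIST.

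**Figure D5:**
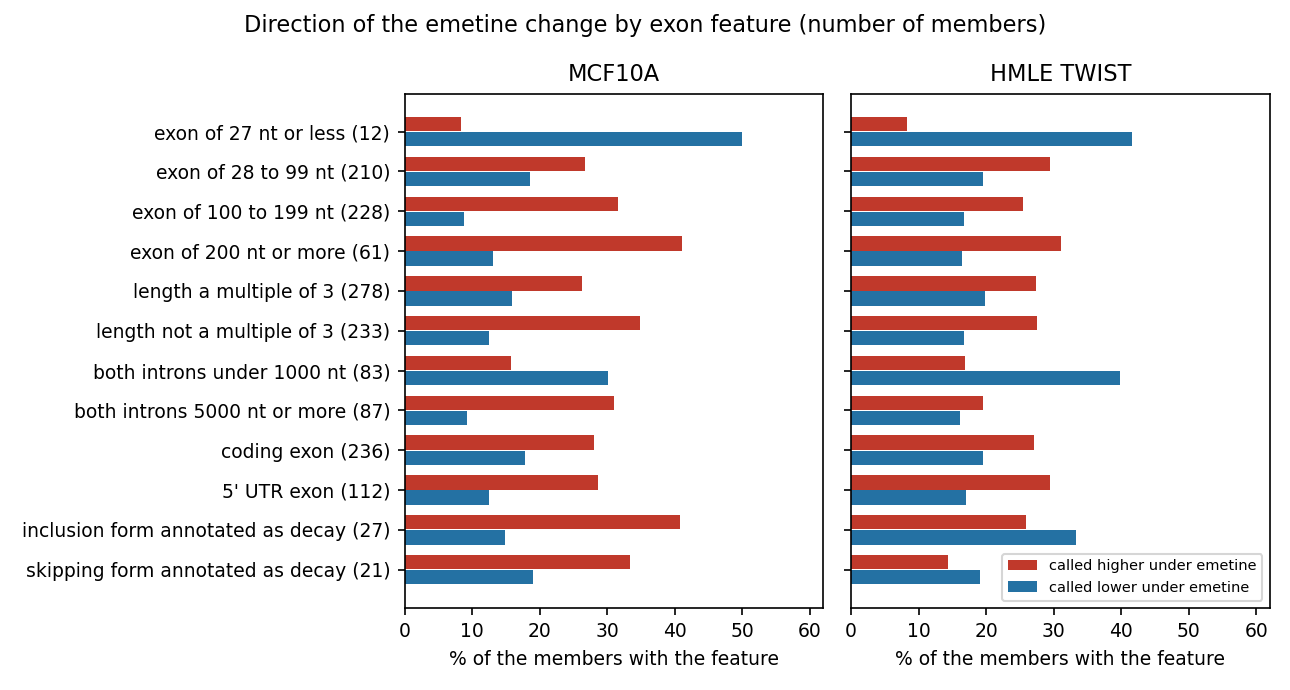
Percentage of the members with each exon feature that were called higher (red) or lower (blue) under emetine, in MCF10A and in HMLE TWIST, with the number of members in brackets. Bars start at 0, decay means annotated nonsense-mediated decay, and falls outnumber rises in both lines for exons of at most 27 bases and for exons between introns under 1000 bases.

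Exon sequence could be read for 453 distinct member exons. The motif GGG, read on the transcribed strand, stood in 66.9% of them, beside 66.3% and 68.4% of the exons of all events tested in MCF10A and HMLE TWIST. It stood in 57.8% of the 83 exons higher in both lines and in 53.2% of the 47 lower in both. Occurrences per 100 bases were 0.94 and 1.95 in these, beside 1.58 and 1.66 over all tested exons. The 174 exons called in neither line held it in 71.8%, at 1.73 per 100 bases. TCTT, a pyrimidine motif of the kind PTBP1 binds, stood in 48.2% of the exons higher in both and 19.1% of those lower in both, beside 40.8% and 39.4% of all tested exons and 40.2% of members called in neither line. The exons lower in both were also shorter (median 78 against 108 bases) and richer in G and C (51.0% against 44.4%) than those higher in both. Over all tested exons the medians were 111 and 113 bases and G and C made up 49.95% and 50.96%. GAAGAA, a purine motif of exonic enhancers, stood in 10.8% and 12.8%, beside 11.2% and 11.1% of all tested exons. TGCATG, the RBFOX motif, stood in 4.82% and 0%, beside 3.05% and 3.16%. Each motif was searched on the transcribed strand only, none contains another, and a match describes letters and not binding.

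By function, 103 members fell in 7 gene lists. For comparison with each list, over all events tested 7.96% rose and 5.14% fell in MCF10A. In HMLE TWIST 6.27% rose and 8.01% fell. Over all members tested, 30.7% rose and 14.5% fell in MCF10A, and 27.7% rose and 18.6% fell in HMLE TWIST. Splicing and RNA-binding protein genes had 17 members in 15 of 120 listed genes, with 6 rises and 5 falls in MCF10A and 6 and 6 in HMLE TWIST, and median changes of -0.0201 and -0.0245 beside -0.000168 and -0.00315 over all events tested. By the mean of the changes in the 2 lines, HNRNPA2B1 and SRSF6 were taken as its examples. PUF60, a splicing factor, rose by 0.225 and 0.356, and ACIN1, a component of the exon junction machinery, moved by -0.0201 in MCF10A and fell by 0.326 in HMLE TWIST with a called difference. Decay and translation factors had 8 members, of which 2 rose and 2 fell in MCF10A and 2 rose and 1 fell in HMLE TWIST. CNOT2, a subunit of the deadenylase complex, rose by 0.189 and 0.134, and MKNK1, the kinase of the cap-binding protein eIF4E, by 0.182 and 0.167, and neither passed limma in either line (adjusted p from 0.0671 to 0.212). MKNK1 lost its call without some single libraries in both lines, and so did CNOT2 in HMLE TWIST.

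The list of cytoskeleton, adhesion and epithelial-mesenchymal splicing targets had 17 members, with 5 rises and 5 falls in MCF10A and 2 rises and 7 falls in HMLE TWIST. MLLT4 and SCRIB were its largest, and WASF1, an actin regulator of the WAVE complex, fell by -0.209 and -0.232. Among kinases, phosphatases and signalling genes 5 of 11 members rose and 2 fell in MCF10A, and 4 rose and 1 fell in HMLE TWIST. MAP4K4 rose at a 192-base coding exon from 0.362 and 0.372 to 0.674 and 0.639 in MCF10A and from 0.35 and 0.325 to 0.698 and 0.626 in HMLE TWIST. Its relative MAP4K3 fell at the 63-base exon printed above from 0.539 and 0.535 to 0.263 and 0.297, and from 0.531 and 0.523 to 0.264 and 0.277. So the 2 kinases of one family moved in opposite directions, each by nearly the same amount in both lines.

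Chromatin, DNA repair, cell cycle and cell death genes had 25 members in 14 genes, with 9 rises and 3 falls in MCF10A and 13 rises and 2 falls in HMLE TWIST. AURKA and HMGN1 each held several of these members, so the counts are not of independent exons. SETD5, a SET-domain protein gene, fell from 0.469 and 0.369 to 0.259 and 0.279 in MCF10A and from 0.545 and 0.463 to 0.0805 and 0.0924 in HMLE TWIST, a difference of -0.267 (adjusted p = 0.000463, and 0.164 with limma). HMGN1 held 3 members, of which the 105-base exon fell and the others rose, by 0.258 and 0.302 for the 129-base exon. These 2 exons are neighbours, and both events count the junction between them as inclusion, so their changes are not independent. Membrane traffic and endocytosis genes had 11 members, 5 up and 1 down in MCF10A and 6 up and 2 down in HMLE TWIST. BIN1, a membrane-bending adaptor, rose at a 129-base coding exon from 0.53 and 0.607 to 0.825 and 0.781, and from 0.321 and 0.306 to 0.603 and 0.576. OSBPL6, an oxysterol-binding protein gene, rose by 0.264 and 0.31.

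Metabolic and mitochondrial genes had 14 members, of which 5 rose and none fell in MCF10A and none was called in HMLE TWIST. MFF, which recruits the fission GTPase DRP1 to mitochondria, rose from 0.416 and 0.362 to 0.772 and 0.733 in MCF10A at a 75-base exon. In HMLE TWIST it was at 0.313 and 0.334, then 0.372 and 0.37, and the difference of the changes was -0.316 (adjusted p = 0.00366, and 0.193 with limma). MRPL33, a mitochondrial ribosomal protein gene with at least 3707 reads per library, went from 0.691 and 0.653 to 0.894 and 0.875 in MCF10A. In HMLE TWIST its levels of 0.609 and 0.586, then 0.605 and 0.614, overlap, and the difference was -0.201 (adjusted p = 1.88e-07, and 0.205 with limma). With limma the calls of BCL9L (adjusted p of 0.0731 and 0.0507), of MAP4K3 (0.0556), BIN1 (0.0639), the 129-base HMGN1 exon (0.0531) and SETD5 (0.18) in MCF10A, of RAPGEF2 in MCF10A (0.108), and of SRSF6 (0.0532) and OSBPL6 (0.0541) in HMLE TWIST did not pass. No list was tested as a set.

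Near the bounds of the window the choice of members was a matter of thousandths. The lowest control level inside was 0.3, at 2 events of NFIB in HMLE TWIST, and the nearest outside was 0.2996 at FAM219B and 0.299 at YIPF1. At the upper bound SLMAP and RCC1 were inside with 0.6997, and RPRD2 with 0.7001 and CCDC90B with 0.7004 were outside. The NFIB events changed by 0.281 and 0.28 in MCF10A and by 0.08 and 0.0962 in HMLE TWIST, and YIPF1, outside, by 0.325 and 0.215.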

How the data were processed

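The 2 deposited skipped-exon tables, in rMATS format, hold the authors' junction counts for each event, with the 2 replicates of a group in a cell. Reads were aligned with STAR 2.5.3a to GRCh37, per the submitters' processing notes. The rMATS version and annotation are not given in the sources used here. The name of each table gives control before emetine, and sample 1 and sample 2 were read in that order. The p-value and false discovery rate of each event, and a level-difference score (mean level of sample 1 minus sample 2), are the authors' own, per the file headers. By these values of the authors' deposited table, 232 members in MCF10A (157 higher, 75 lower) and 248 in HMLE TWIST (149 higher, 99 lower) passed the same thresholds. The replicates in a cell carry no number, so libraries are named by listed position.

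The tables were joined on chromosome, strand and 6 coordinates. Levels and changes were computed from the counts. Each event with at least 20 reads in every library and at least 10 of the rarer form was fitted with a quasi-binomial logistic model (Python 3.11.15, numpy 2.4.6). Its dispersion was moderated with limma 3.58.1 (squeezeVar, R 4.3.3), floored at 1, and tested with a two-sided F test with Benjamini-Hochberg adjustment over all events of the fit. The prior was estimated from events with at least 5 reads of each form in every library. That restriction was added after the calls of an earlier version were seen, because with a nearly empty form the dispersion is held near 0 and fits with 1 residual degree of freedom called nothing. limma on log2 odds (0.5 added) was the alternative. The models were tested on simulated data in which few events were shifted. There the quasi-binomial test made more false calls within a line than its threshold allows, and limma made no call at all. In the data limma called 2012 events in MCF10A and 3012 in HMLE TWIST, so the simulation does not describe its power here.

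Events were matched to GENCODE 29 by gene, strand, exon length and both intron lengths, with no conversion of coordinates. Coordinates are GRCh37, counted from 1. Members, gene lists and tests were chosen with earlier results of these data known. Named are the 8 largest shared rises and falls, the 5 largest called line differences and the 4 least changed deep members. Also named are the 2 largest of each list, the events nearest the bounds, and others where stated. PUF60, ACIN1, WASF1, TIAL1, AURKA and MAP2K7 fall under none of these rules and were added with their values known.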

Additional observations from a re-analysis of the deposited data

Results flagged for a closer look

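The line-by-treatment term of the quasi-binomial model was called for 48 of 497 members tested (9.66%), beside 1.62% of all 19025 events tested. With limma none of the 48 was called. Among named members the HMLE TWIST change exceeded that of MCF10A by 0.555 in BCL9L, 0.491 in RAPGEF2, 0.426 in ZNF446 and 0.402 in MDC1. It was lower, with a difference of -0.455 in CAPRIN2, -0.316 in MFF, -0.267 in SETD5 and -0.201 in MRPL33. limma's adjusted p for these 8 lay between 0.115 and 0.23, so none passed under that test.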

How the results depend on the processing

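The percentage of the 511 members changed was 44.4 in MCF10A, 45.8 in HMLE TWIST, 27.8 in both lines in the same direction and 9.39 for a different response. With limma these were 11.0, 15.1, 5.09 and 0. A minimum change of 0.2 gave 24.1, 26.8 and 13.3 for the first 3. The percentage with a different response was 5.09 with each event's own dispersion where larger and 5.48 with no minimum of the rarer form. The prior from all tested events, the version first run, gave 72 members with a different response in place of 48, and 226, 230 and 138 for the other counts, and a single shared dispersion gave 59. Both were added after the data were seen, as was a window wider by 0.05 for the emetine libraries. Leaving out 1 library at a time gave 34.0 to 42.5 in MCF10A, 33.7 to 47.4 in HMLE TWIST, 21.1 to 28.8 in both and 4.89 to 9.98 for a different response, lowest without the second listed HMLE TWIST control. The members with all 4 emetine libraries inside the window went from 44% to 25.4% without length correction, which also moves the control levels. The listed positions were taken as the replicate numbers. First-minus-second differences of control and emetine libraries correlated at 0.039 in MCF10A and 0.027 in HMLE TWIST. Counting error in each level lowers such a correlation, so it cannot exclude that the samples were paired. With a replicate block the percentages were 47.8, 50.7, 30.1 and 12.3. The mean dispersion was then 1.83 in place of 2.15 in MCF10A and 1.76 in place of 2.27 in HMLE TWIST. No called result changed direction under the alternatives run. For a named member, only the fits without length correction or without a library could show this, since the others keep the same change. The ZNF446 change in HMLE TWIST, which was not called, went from -0.0437 to 0.0481 without the first listed HMLE TWIST emetine library. Small uncalled changes of AXL, AKR1A1, SUGT1, FAM120AOS and MDC1 also turned sign without single libraries. Of 1017 values of named members under alternatives, 941 kept their side of the threshold, 70 fell short of it and 6 newly passed it. By reads in the shallowest library, 34.2% of members with under 100 were called in MCF10A and 34.7% in HMLE TWIST, 53.6% and 48.5% of those with 100 to 300, and 45.7% and 58.3% of those with at least 300.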

Other observations

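A few members reached the end of the scale under emetine, and they were picked for this after their values were seen. Both emetine libraries were above 0.9 for 7 members in MCF10A and for 4 in HMLE TWIST, and CCDC92 and HNRNPA2B1 were there in both lines. ATXN2, the ataxin-2 gene, rose at a 169-base coding exon from 0.686 and 0.698 to 0.934 and 0.931 in MCF10A and from 0.601 and 0.653 to 0.893 and 0.874 in HMLE TWIST. A 54-base coding exon of ATXN2 fell in both lines, by -0.212 and -0.156, so the gene held calls in both directions. Both emetine libraries were below 0.1 for 2 members in MCF10A and 7 in HMLE TWIST, and PRR14 was there in both lines. NEMP1, at a 73-base exon annotated in a decay form, had the largest rise in HMLE TWIST, from 0.41 and 0.419 to 0.923 and 0.939, and went from 0.508 and 0.537 to 0.675 and 0.65 in MCF10A.

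AURKA, the mitotic kinase gene, held 4 members in its 5′ UTR, which share junction reads. All 4 rose in HMLE TWIST, by 0.14 to 0.245, and 2 rose in MCF10A, by 0.134 and 0.125. MAP2K7, a kinase of the JNK pathway, fell from 0.349 and 0.352 to 0.134 and 0.131 in MCF10A at a 48-base coding exon, while its HMLE TWIST levels were 0.546 and 0.611, then 0.719 and 0.66, with a called difference. Mean levels of the 2 lines differed by at least 0.2 in 36 members in the controls and in 80 under emetine. The control levels had been held inside the window by the choice of members, so these counts cannot show whether the lines drew apart.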
